A study of Mus musculus with 2 samples.

Results

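The platelet-derived growth factor (PDGF) family consists of 4 ligand genes, Pdgfa, Pdgfb, Pdgfc and Pdgfd, and 2 receptor genes, Pdgfra and Pdgfrb. These 6 members, of 28692 genes in the count tables, were taken by gene symbol and followed through single cells of the stromal vascular fraction (SVF, the cells left once adipocytes have floated off) of gonadal white adipose tissue (gWAT). All 6 were present in the tables of both libraries, and every member is accounted for below. The mice were 13-week-old C57BL/6 males. One library came from Adipo-Pgam1 KO mice, in which Cre recombinase under the adiponectin promoter deleted floxed alleles of Pgam1, the gene of the glycolytic enzyme phosphoglycerate mutase 1. The other came from littermate controls, which the labels call wild type and the study's methods describe as carrying the floxed alleles without Cre. The adiponectin promoter drives Cre in adipocytes, so the cells measured here were not its main target, and 6 adipocyte markers summed to only 7.23 CPM (UMIs, that is captured molecules, of the genes per 1000000 in all) in control and 5.32 CPM in KO fibroblast-like cells. The number of mice behind each library is not given in the sources used here.

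PDGF ligands are secreted dimers that activate receptor tyrosine kinases on neighboring cells. PDGF-A and PDGF-C act mainly through PDGFRα, PDGF-B through both receptors, and PDGF-D mainly through PDGFRβ. PDGF-C and PDGF-D are secreted in a latent form that proteases must cut, while PDGF-A and PDGF-B are processed inside the cell. In adipose tissue PDGFRα marks fibroblasts and adipocyte progenitors, and endothelial PDGF-B is known for recruiting PDGFRβ-bearing pericytes to capillaries.

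The control library held 8522 barcodes and 42859406 unique molecular identifiers (UMIs, each standing for 1 captured RNA molecule), and the KO library held 2730 barcodes and 13821581 UMIs. A minimum of 500 detected genes and a maximum of 10% mitochondrial UMIs left 3881 and 958 barcodes, and 3616 control and 937 KO cells remained after removal of likely doublets, with median depths of 6898 and 7494 UMIs. The libraries shared 9 barcodes in all and 0 among these cells. Cells fell into 34 clusters, of which 9, with 878 control and 258 KO cells, were left unnamed by the naming rule. These 9 are called here by their leading genes. The unnamed cluster led by Mmp12, Ccl12 and Cxcl2 still scored highest on the macrophage list, with 7 markers detected. The named clusters made 16 classes with cells of both libraries and 1 class, Schwann-like, with KO cells only. Class names end in "-like" and come from marker genes that exclude the PDGF family. Pgam1 RNA was at 99.3 CPM over all control barcodes and 91.5 CPM over all KO barcodes. In kept cells it was at 109.6 and 116.2 CPM, a log2 ratio (KO over control) of 0.08 (-0.02 to 0.18), and in fibroblast-like cells the ratio was -0.04 (95% interval -0.23 to 0.14). Levels are UMIs of a gene summed over the cells of a class divided by all UMIs of those cells and given as CPM. Each genotype is 1 library, so no test was possible. All intervals are exact 95% intervals that cover counting error only, and genotype cannot be told apart from library, mouse or preparation.

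The start-site windows of the 3 ligand genes for which the table used here holds one are shown, since the results below turn on where these ligands were highest: Pdgfa in vascular smooth muscle, Pdgfc in a Ptn-positive contractile cluster and macrophages, and Pdgfd in Sema3g-positive endothelium. Each window runs from 250 bases before to 50 bases after a RefSeq start site (GRCm38.p6) and is written 5′ to 3′ along the gene. Capitals mark matches on either strand to the GC box (GGGCGG) or the TATA motif (TATAAA), or to the CArG box, the element that serum response factor reads in muscle genes. The Pdgfa window covers chr5:138994895-138995194 (minus strand), the Pdgfc window chr3:81036166-81036465 (plus) and the Pdgfd window chr9:6168236-6168535 (plus).
Pdgfa: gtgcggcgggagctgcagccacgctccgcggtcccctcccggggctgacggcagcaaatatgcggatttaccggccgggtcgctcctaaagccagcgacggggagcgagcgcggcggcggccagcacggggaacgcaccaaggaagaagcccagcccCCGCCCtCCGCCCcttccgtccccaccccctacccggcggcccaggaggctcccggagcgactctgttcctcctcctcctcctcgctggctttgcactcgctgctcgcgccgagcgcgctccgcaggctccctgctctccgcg
Pdgfc: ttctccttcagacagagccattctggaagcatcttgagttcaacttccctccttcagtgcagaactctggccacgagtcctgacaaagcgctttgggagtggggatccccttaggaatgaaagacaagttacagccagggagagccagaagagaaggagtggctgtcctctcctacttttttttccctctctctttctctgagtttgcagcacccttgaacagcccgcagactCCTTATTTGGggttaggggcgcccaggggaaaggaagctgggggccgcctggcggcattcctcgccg
Pdgfd: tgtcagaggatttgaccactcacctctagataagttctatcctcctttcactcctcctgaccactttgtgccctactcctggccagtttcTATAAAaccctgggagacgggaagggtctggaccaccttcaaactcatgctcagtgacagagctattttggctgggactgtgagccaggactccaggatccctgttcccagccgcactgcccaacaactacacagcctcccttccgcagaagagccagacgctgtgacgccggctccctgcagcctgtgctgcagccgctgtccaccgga
The Pdgfa window was 73.3% G and C and held 2 GC boxes, a motif present in 35.6% of 32817 start-site windows of the same length. The Pdgfc window held 1 CArG box, found in 1.63% of windows, and the Pdgfd window held 1 TATA motif, found in 13.6%. The other Pdgfa window (chr5:138994232-138994531) held 1 GC box, and the Pdgfra window (chr5:75152001-75152300) held none of the 3 motifs. A match is a description of letters and not a binding site, and counts taken at transcript 3′ ends do not show which start site a cell used.

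The 6 genes lie on 5 chromosomes of the mouse genome (GRCm38, GENCODE annotation). Pdgfa (ENSMUSG00000025856) spans bases 138976014 to 138997370 of chromosome 5 on the minus strand, and Pdgfra (ENSMUSG00000029231) spans 75152292 to 75198215 of the same chromosome on the plus strand. Pdgfb (ENSMUSG00000000489) spans 79995874 to 80014977 of chromosome 15 on the minus strand. Pdgfc (ENSMUSG00000028019) spans 81036416 to 81214040 of chromosome 3, Pdgfd (ENSMUSG00000032006) spans 6168584 to 6378850 of chromosome 9, and Pdgfrb (ENSMUSG00000024620) spans 61045150 to 61085061 of chromosome 18, all on the plus strand. Annotated genes on the opposite strand overlap 5 of the 6, Pdgfrb being the exception. On the same strand only microRNA genes overlap, in Pdgfb and Pdgfra.

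The ligands differed in where their levels were highest. In the control library Pdgfa was highest in contractile mural cells and Pdgfb in blood endothelial-like cells. Pdgfc was highest in a Ptn-positive contractile cluster and in Folr2-positive macrophage-like cells, and Pdgfd in the endothelial cluster led by Sema3g. The heat map of levels by class shows this division in both libraries among classes that both hold, although in KO the Folr2 cells were above the Ptn cluster for Pdgfc.

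**Figure D1:**
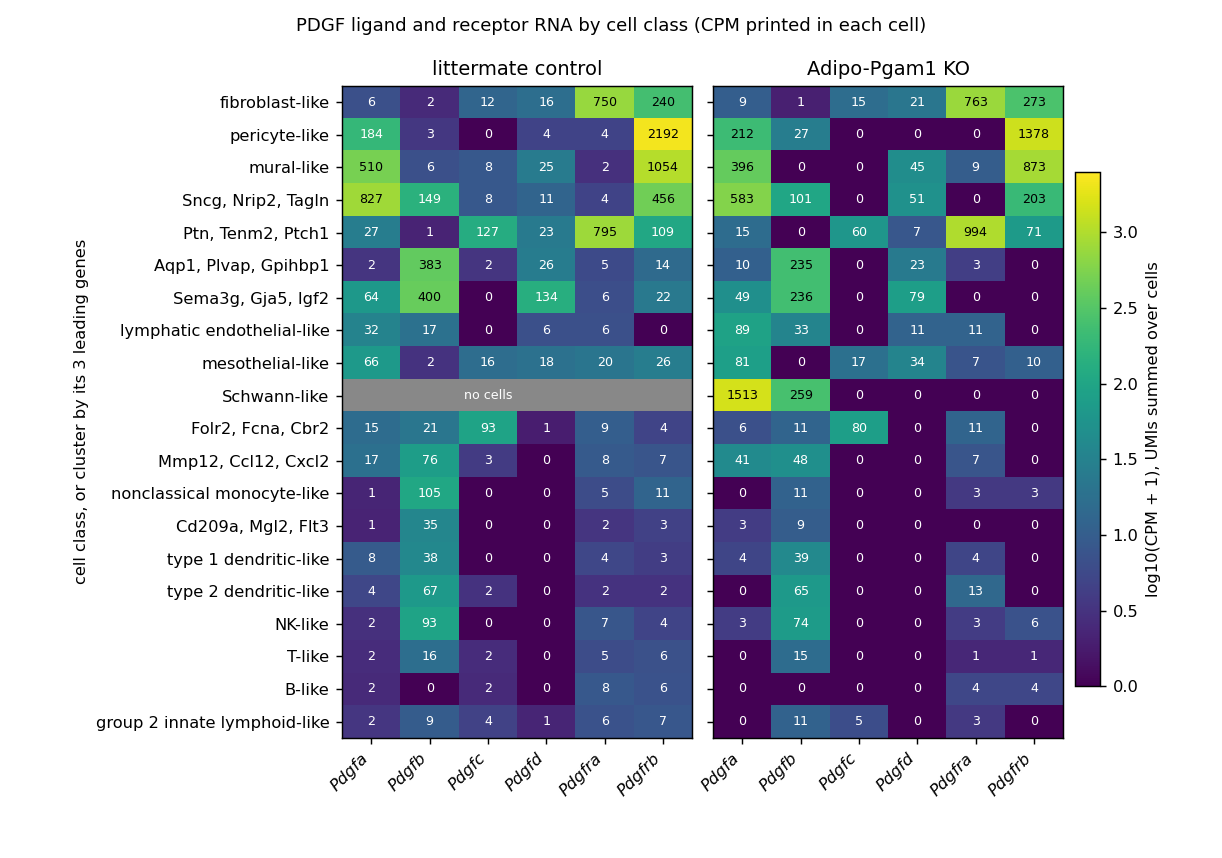
Heat map of the 6 PDGF genes (columns) in 20 cell classes or clusters (rows), with the control library in one panel and the KO library in the other; color gives log10(CPM + 1) and the printed value is CPM. Pdgfra is high in fibroblast-like cells (750 CPM in control) and the Ptn cluster (795 CPM), and Pdgfrb in pericyte-like cells (2192 CPM in control), and Schwann-like cells were kept in the KO library only.

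Pdgfa encodes the A chain, a ligand of PDGFRα. In the control library its highest level was 827 CPM (721 to 945; 216 UMIs in 35 cells) in the smooth muscle-like cluster led by Sncg, Nrip2 and Tagln. The mural-like cluster led by Colec11, Id4 and Kcnk3 followed at 510 CPM (450 to 575), and pericyte-like cells were at 184 CPM (156 to 217). The intervals of these 3 levels do not overlap. The other contractile cluster, led by Ptn, Tenm2 and Ptch1, was at only 26.6 CPM of Pdgfa. The 7 smooth muscle markers summed to 26819 CPM in the Sncg cluster, 15496 CPM in mural-like cells, 1283 CPM in pericyte-like cells and 14518 CPM in the Ptn cluster. The smooth muscle-like cluster exceeded pericyte-like cells by 2.17 on the log2 scale (1.85 to 2.48).

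Pericyte-like, mural-like and smooth muscle-like cells together were 8.24% of control cells and held 66.2% of all control Pdgfa UMIs. Mesothelial-like cells, which line the tissue surface, were at 66.2 CPM (53.4 to 81.1), and the Sema3g endothelial cluster was at 64.4 CPM against 2.36 CPM in the endothelial cluster led by Aqp1. An unnamed cluster led by Mt3, Dcdc2a and Calml3 (85 control and 27 KO cells) also held at least 50 Pdgfa UMIs over both libraries. Its level is not given here. Fibroblast-like cells were at only 5.79 CPM, with a UMI in 43 of 785 cells. Most of that came from the cluster led by Cilp, Mfap4 and Mgp, which scored between the progenitor and interstitial marker lists, at 22.6 CPM (41 of 56 UMIs), while interstitial preadipocyte-like cells were at 1.89 CPM, a log2 difference of 3.58 (2.62 to 4.64). T-, B- and NK-like cells, taken as a reference for stray RNA, were at 1.77 CPM, so the level in interstitial preadipocyte-like cells was close to that background.

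In the KO library 7 Schwann-like cells held 70 of 260 Pdgfa UMIs, 26.9% of the total from 0.747% of the cells, at 1513 CPM (1180 to 1912). All 7 had a Pdgfa UMI, but 1 cell alone held 44 of the 70. The 8 Schwann markers were all detected and summed to 9686 CPM in these cells, while 5 of 7 fibroblast markers were also found in at least 25% of them. No control cell remained in this class, because the doublet score removed all 13 control barcodes that clustered as Schwann-like when doublets were kept. Those 13 barcodes each had a Pdgfa UMI (1 to 16 per barcode) and stood at 868 CPM. With doublets kept KO exceeded control by a log2 ratio of 0.80 (0.29 to 1.31), and without the highest KO cell it was -0.22 (-0.94 to 0.46).

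Pdgfb encodes the B chain, the ligand of both receptors. Its level was alike in the 2 blood endothelial-like clusters of the control library, 400 CPM (337 to 472) in the Sema3g cluster and 383 CPM (326 to 446) in the Aqp1 cluster, and their log2 difference was 0.06 (-0.27 to 0.40). Of control blood endothelial-like cells 67.5% had a Pdgfb UMI, whereas 0 of 134 control B-like cells had one, for which the limit of 3 counts is a share of 2.24% of cells with a UMI. Median depths of these classes were 4366 and 4000 UMIs.

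Outside the endothelium Pdgfb RNA was spread over muscle and immune cells. The Sncg smooth muscle-like cluster was at 149 CPM (106 to 204), nonclassical monocyte-like cells at 105 CPM (84.0 to 131) and NK-like cells at 93.2 CPM (75.2 to 114). T-like cells were at 16.1 CPM, lower than NK-like cells by a log2 difference of 2.53 (1.81 to 3.33), and 5.86% of all genes were at least 2-fold higher in NK-like cells. Among phagocytes the unnamed cluster led by Mmp12, Ccl12 and Cxcl2 was at 76.3 CPM and the Folr2 macrophage-like cells at 20.7 CPM, a log2 difference of -1.89 (-2.40 to -1.39) for Folr2 against Mmp12. Pericyte-like cells, in which RNA of the receptor gene Pdgfrb was highest, held only 2 Pdgfb UMIs in 127 control cells. The 7 KO Schwann-like cells were at 259 CPM, on 12 UMIs.

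Pdgfc encodes a latent ligand of PDGFRα that the protease tPA can activate. The control level was highest, 127 CPM (104 to 153; 110 UMIs), in the cluster led by Ptn, Tenm2 and Ptch1, in which 62.5% of 80 cells had a UMI. Folr2 macrophage-like cells followed at 92.5 CPM (80.3 to 106) and held 41.0% of all control Pdgfc UMIs from 8.57% of the cells. The Mmp12 cluster held only 5 UMIs (2.89 CPM), and the log2 difference of Folr2 against Mmp12 was 5.00 (3.75 to 6.64), where 9.20% of all genes were 2-fold or more higher and 5.51% were lower by that much. Pdgfb and Pdgfc thus differed in opposite directions between these 2 phagocyte populations. Pericyte-like cells held 0 Pdgfc UMIs in both libraries.

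Fibroblast-like cells were at 12.0 CPM of Pdgfc (9.91 to 14.4). The level differed within the class. The Cilp cluster was at 29.2 CPM, the Pi16 and Dpp4 progenitor-like cells at 17.8 CPM and the interstitial preadipocyte-like cells at 5.67 CPM. Progenitor-like against interstitial cells differed by 1.65 on the log2 scale (0.88 to 2.41).

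Pdgfd encodes a latent ligand of PDGFRβ that urokinase can activate. It was at 134 CPM (99.1 to 178) in the Sema3g endothelial cluster and at 26.0 CPM (13.0 to 46.5) in the Aqp1 cluster of the control library, a log2 difference of 2.37 (1.41 to 3.46). At least 2-fold higher levels in the Sema3g cluster were seen for 8.75% of all genes. Sema3g and Gja5 are genes of arterial endothelium, so the endothelial cells that held Pdgfd and Pdgfa were those with arterial genes, while Pdgfb did not separate the 2 clusters. Fibroblast-like cells were at 15.7 CPM (13.3 to 18.4) but, being many, held 53.3% of all control Pdgfd UMIs. T-, B- and NK-like cells held 0 Pdgfd UMIs in 617 control and 204 KO cells.

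**Figure D2:**
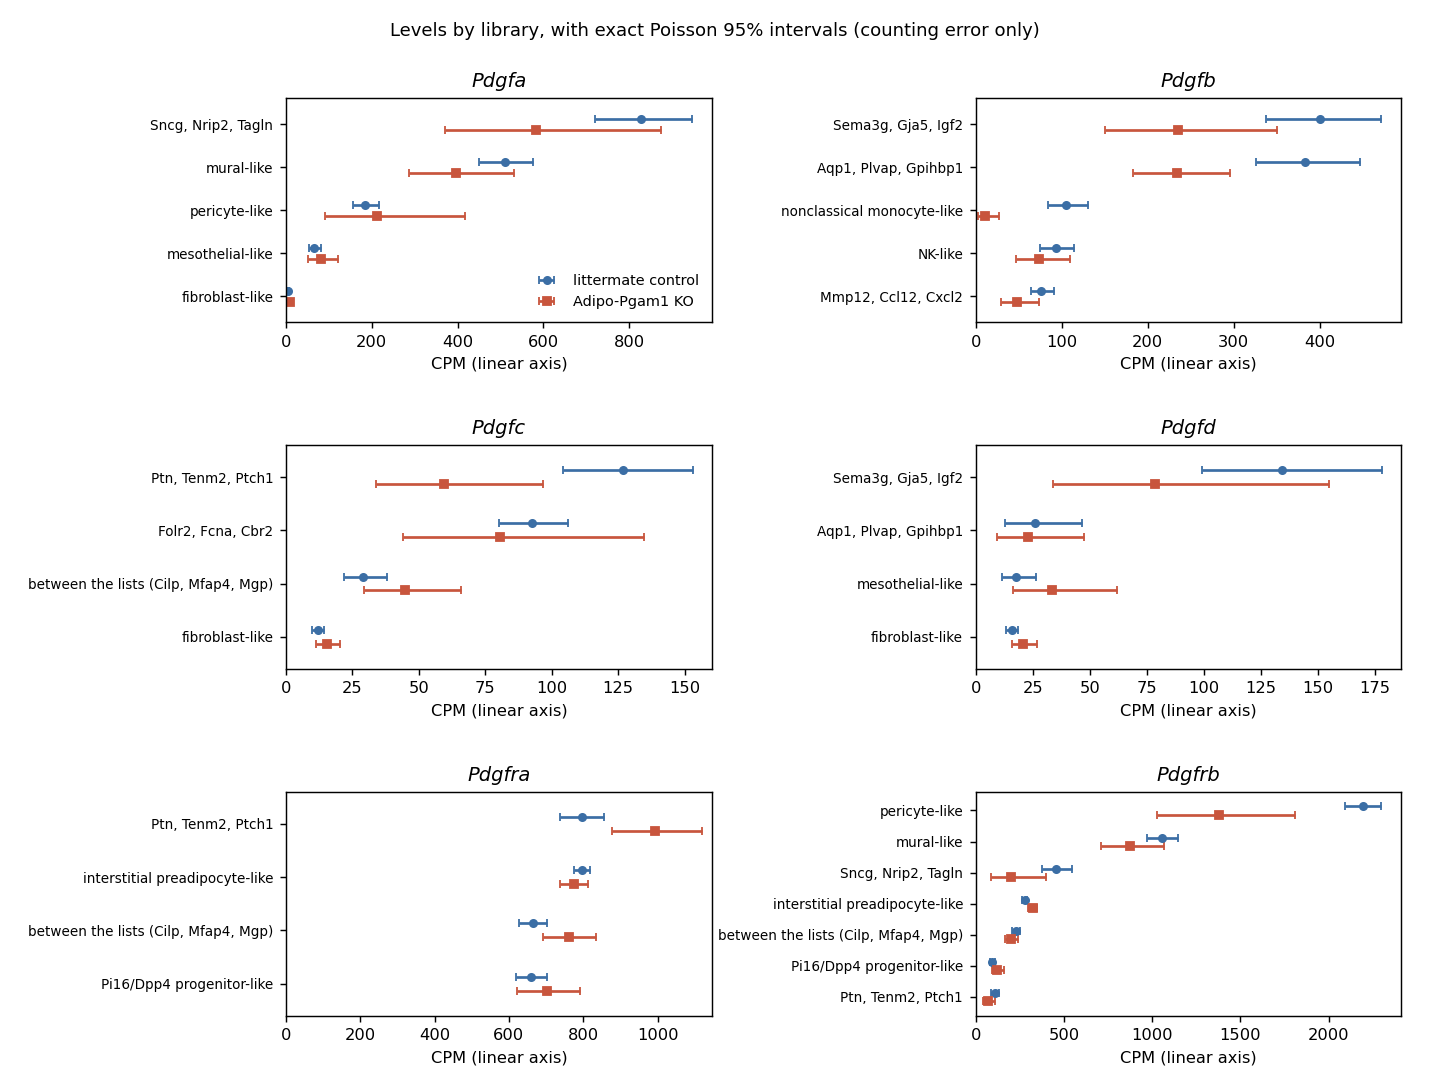
Levels in CPM (linear axis) of each PDGF gene, 1 panel per gene, in the control and KO libraries; points are UMI-summed levels and bars are exact 95% Poisson intervals, which cover counting error only. Pdgfrb in pericyte-like cells was at 2192 CPM in control and 1378 CPM in KO, while Pdgfra in interstitial preadipocyte-like cells was at 796 and 775 CPM.

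Pdgfra, the receptor of PDGF-A and PDGF-C, was held mostly by fibroblast-like cells, though its level was alike in the Ptn cluster, as given below. Fibroblast-like cells of the control library were at 750 CPM (733 to 767; 7257 UMIs), 98.7% of them had a UMI, and they held 88.9% of all control Pdgfra UMIs. In T-, B- and NK-like cells the share with a UMI was 2.43% at a median of 4283 UMIs per cell, against 12306 in fibroblast-like cells. Interstitial preadipocyte-like cells were at 796 CPM, the Cilp cluster at 664 CPM and the Pi16 and Dpp4 progenitor-like cells at 660 CPM. The last 2 did not differ beyond their intervals, and progenitor-like against interstitial cells differed by -0.27 on the log2 scale (-0.37 to -0.17). An unnamed shallow cluster led by Apod, Aldh1a7 and Gpx3 (3.18% of control and 5.23% of KO cells, median 1704.5 UMIs) also held Pdgfra, at 341 CPM in control and 304 CPM in KO, but the naming rule kept it out of the fibroblast-like class.

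Pdgfrb, the receptor of PDGF-B and PDGF-D, was highest in pericyte-like cells, at 2192 CPM (2090 to 2299; 1712 UMIs) in the control library, with a UMI in 99.2% of 127 cells. The order then ran through mural-like cells at 1054 CPM (968 to 1147), the Sncg smooth muscle-like cluster at 456 CPM (378 to 546) and fibroblast-like cells at 240 CPM (230 to 250). Among pericyte-like, mural-like and Sncg cells this order is the reverse of the one for Pdgfa. Pericyte-like cells exceeded fibroblast-like cells by 3.19 on the log2 scale (3.10 to 3.28).

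Within the fibroblasts Pdgfrb separated the classes more than Pdgfra did. Interstitial preadipocyte-like cells were at 278 CPM (265 to 291) and Pi16 and Dpp4 progenitor-like cells at 93.1 CPM (78.4 to 110), a log2 difference of -1.58 (-1.83 to -1.33) for progenitor-like against interstitial. Of all genes measured in that comparison 6.94% were lower by 2-fold or more and 3.39% were higher in progenitor-like cells, and among the members Pdgfrb was lower and Pdgfc higher past that mark.

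The cluster led by Ptn, Tenm2 and Ptch1 combined a muscle signature with Pdgfra. All 7 smooth muscle markers were detected, with Myh11 (smooth muscle myosin) at 2520 CPM and Acta2 (smooth muscle actin) at 7096 CPM in the control library. The pericyte genes Rgs5 and Kcnj8 were at 32.3 and 16.2 CPM, against 10536 and 1767 CPM in pericyte-like cells. The 7 fibroblast markers summed to 5741 CPM, against 42575 CPM in fibroblast-like cells, and the matrix genes Dcn and Col3a1 were at 2797 and 419 CPM, against 24612 and 5829 CPM. Pdgfra was at 795 CPM (737 to 857) there, against 750 CPM in fibroblast-like cells, a log2 difference of 0.09 (-0.03 to 0.20). The Sncg smooth muscle-like cluster held 1 Pdgfra UMI in 35 cells. Pdgfrb in the Ptn cluster was at 109 CPM, a log2 difference from fibroblast-like cells of -1.14 (-1.46 to -0.85), and Pdgfa was at 26.6 CPM, against 827 CPM in the Sncg cluster. Because both clusters passed the smooth muscle marker rule, values for smooth muscle-like cells as 1 class mix them.

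Receptor co-detection was then counted, that is, the share of cells with at least 1 UMI of both receptors. Of control fibroblast-like cells 82.3% (79.4 to 84.9; 646 of 785) had both, and of KO fibroblast-like cells 89.0% (83.5 to 93.2; 162 of 182). Only 3 control and 1 KO cell had Pdgfrb without Pdgfra, against 129 and 16 with Pdgfra alone. In contrast, 3 of 127 control and 0 of 9 KO pericyte-like cells had both, and 123 control pericyte-like cells had Pdgfrb alone. No T-, B- or NK-like cell had both (0 of 617 and 0 of 204).

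These shares follow depth, and KO fibroblast-like cells were deeper (median 17876 UMIs, against 12306). With each cell thinned to 2000 UMIs, 27.0% of control fibroblast-like cells (23.9 to 30.3; 209 of 774, with 11 shallower cells left out) and 32.8% of KO cells (26.0 to 40.2; 59 of 180, with 2 left out) had both. The product of the single-gene shares was 26.3% and 31.9%. Among thinned control cells Pdgfrb was detected in 36.1% of those with Pdgfra and in 32.3% of those without, and the intervals (32.2 to 40.2 and 25.8 to 39.4) overlapped.

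Co-detection was lower in Pi16 and Dpp4 progenitor-like cells, at 60.3% in control and 70.8% in KO (10.0% and 13.0% when thinned), than in interstitial preadipocyte-like cells, at 87.1% and 92.6% (31.2% and 39.3% when thinned). The Cilp cluster was at 82.1% and 88.9% (24.6% and 22.9% when thinned). In the Ptn cluster 53 of 80 control and 10 of 20 KO cells had both. Thinned, these were 15 of 79 and 0 of 19.

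**Figure D3:**
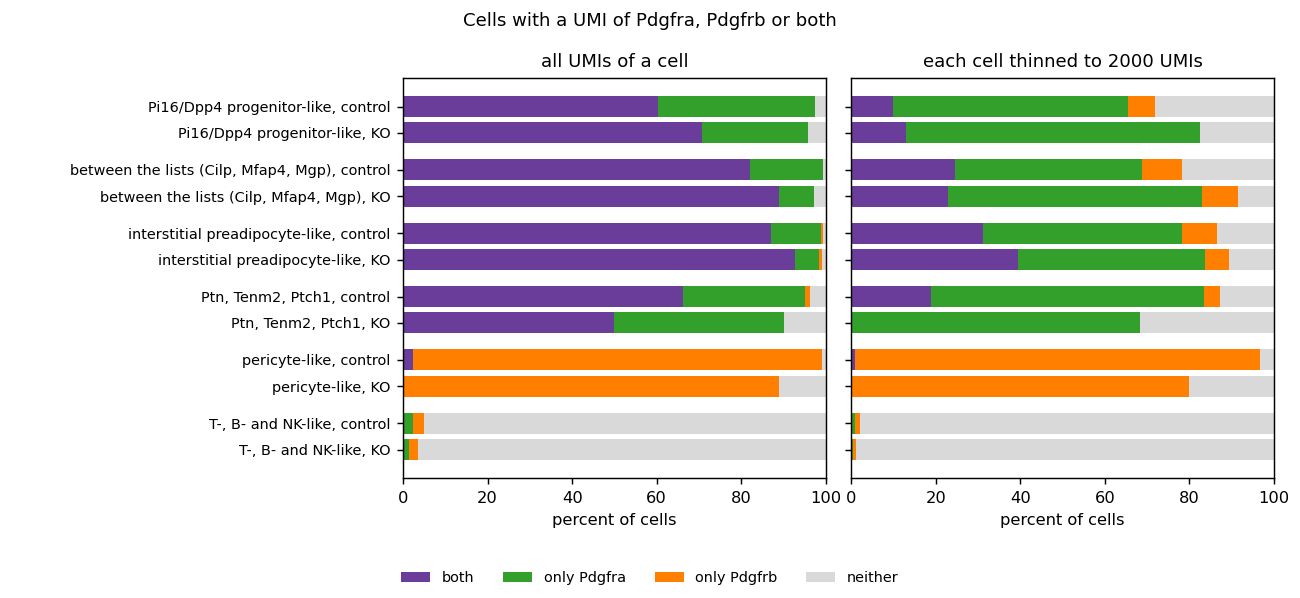
Stacked bars of the percentage of cells with UMIs of both receptors, Pdgfra alone, Pdgfrb alone or neither, in 6 cell groups of each library, with all UMIs and with each cell thinned to 2000 UMIs. Interstitial preadipocyte-like cells with both receptors were 87.1% of control and 92.6% of KO cells with all UMIs, and 31.2% and 39.3% when thinned, while pericyte-like cells show Pdgfrb almost alone.

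The comparison of Adipo-Pgam1 KO mice with littermate controls asks whether the deletion went along with a difference in SVF cells. The study proposes that an SVF fibroblast cluster rich in adipocyte markers also lost Pgam1, and reports much lower Pgam1 RNA there. That cluster was not matched to the clusters used here. A gene was counted as different in a class when its CPM differed at least 2-fold and it had at least 50 UMIs over both libraries. Of the 20 member and class pairs that reached this depth, 0 were 2-fold higher and 4 were 2-fold lower in KO. Over all genes and the same 16 classes, 1.74% of pairs were 2-fold higher and 3.64% were 2-fold lower. The interval of the log2 ratio lay below 0 in 7 of the 20 pairs and above 0 in 2. That interval count was not made over all genes, so it is not read as particular to the members. The 4 lower pairs were Pdgfd in blood endothelial-like cells, Pdgfb in nonclassical monocyte-like cells, and Pdgfa and Pdgfrb in smooth muscle-like cells.

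Fibroblast-like cells, the largest class, differed little in PDGF genes. Of 5 members with enough UMIs, 0 differed 2-fold, while 2.80% of 10561 genes did. Pdgfra was at 750 CPM in control and 763 CPM in KO (log2 ratio 0.02, -0.04 to 0.09). Pdgfrb was at 240 and 273 CPM (0.19, 0.07 to 0.30), with 2319 and 821 UMIs. The makeup of the class differed between the libraries: the Agt cluster made up 252 of 785 cells in control and 89 of 182 in KO, and the Ccl11 cluster 277 and 33. By cluster, the Pdgfrb ratio was 0.29 (0.14 to 0.45) in the Agt cluster and 0.40 (-0.11 to 0.88) in progenitor-like cells, but -0.14 (-0.42 to 0.13) in the Ccl11 cluster and -0.19 (-0.50 to 0.11) in the Cilp cluster. The 3 ligands measured here had ratios above 0, with intervals that reached below it: 0.68 (-0.02 to 1.36) for Pdgfa, 0.35 (-0.18 to 0.85) for Pdgfc and 0.41 (-0.03 to 0.85) for Pdgfd. These ligand ratios are for the whole class. In the Cilp cluster 1 of the 5 members with enough UMIs had an interval above 0, and it was not Pdgfrb.

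Over all genes of fibroblast-like cells, 119 were 2-fold higher and 177 were 2-fold lower in KO, and the median log2 ratio was -0.10. TMM and median-of-ratios scaling each bring that median to nearly 0 and gave 156 higher and 132 lower, so ratios in this class are to be read against a shift of that size. The lower limits for Pdgfa (-0.02) and Pdgfd (-0.03) are nearer to 0 than that shift. Counting the 7 Schwann-like cells as fibroblasts would have raised the Pdgfa ratio from 0.68 to 2.47 (1.98 to 2.97).

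**Figure D4:**
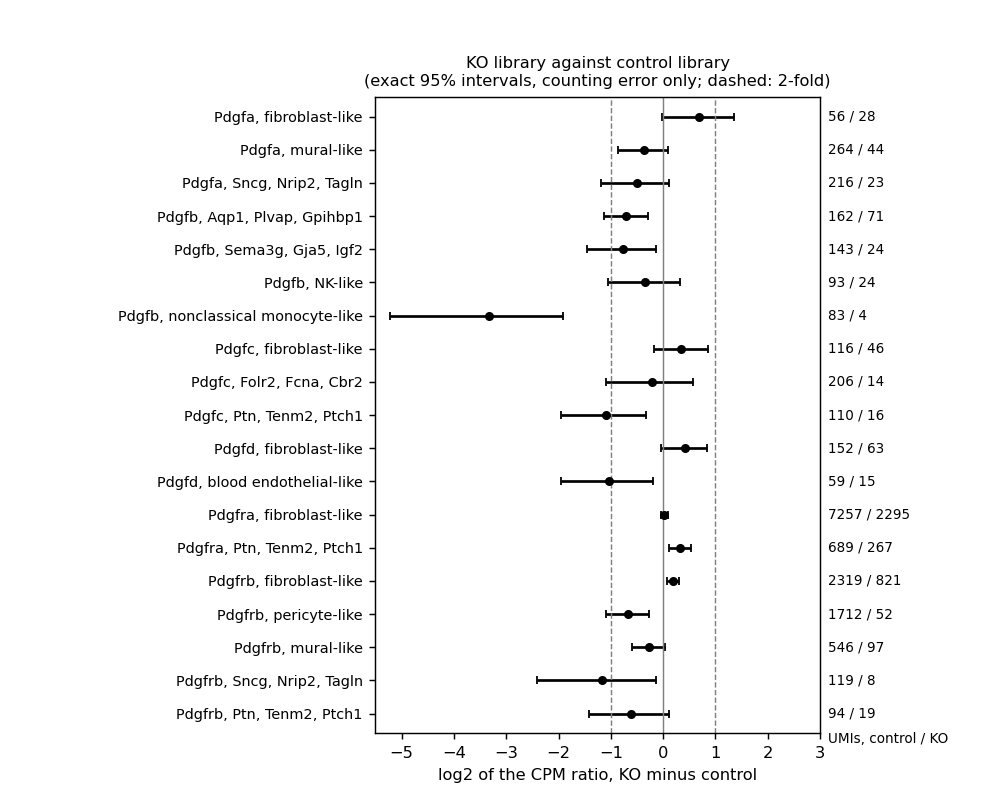
Log2 ratio of KO to control level (x axis) for 19 gene and class pairs (y axis), with exact 95% intervals for counting error and the UMIs of each library at the right. Pdgfra and Pdgfrb in fibroblast-like cells sit near 0 (0.02 and 0.19), and Pdgfb in nonclassical monocyte-like cells sits at -3.32.

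Endothelial Pdgfb was lower in the KO library. Blood endothelial-like cells were at 391 CPM (348 to 437; 305 UMIs in 151 cells) in control and 235 CPM (190 to 287; 95 UMIs in 61 cells) in KO, a log2 ratio of -0.73 (-1.08 to -0.40). The difference had nearly the same size in both clusters, -0.71 (-1.13 to -0.29) in the Aqp1 cluster and -0.76 (-1.45 to -0.13) in the Sema3g cluster, where 1 KO cell held 9 of 24 UMIs. The share of cells with a UMI was 67.5% in control and 54.1% in KO, and 55.2% and 42.6% when thinned. On thinned cells the log2 ratio was -0.41, and its interval (-1.06 to 0.20) included 0. All 8 blood endothelial markers were detected in both libraries and summed to 7874 and 8270 CPM, and median depths were 4366 and 6621 UMIs; their part in the result was not tested. Of all genes in this class 3.49% were 2-fold lower, and of the 2 members with enough UMIs 1 was, Pdgfd.

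Pdgfd in blood endothelial-like cells was at 75.6 CPM (59 UMIs) in control and 37.1 CPM (15 UMIs) in KO, a log2 ratio of -1.03 (-1.95 to -0.19). The Sema3g cluster, where Pdgfd was highest, made up 76 of 151 control cells and 18 of 61 KO cells. Within that cluster the ratio was -0.78 (-2.07 to 0.32), and in the Aqp1 cluster 11 and 7 UMIs gave 26.0 and 23.1 CPM. The KO library also had a smaller share of Sema3g cells, and neither cluster alone differed beyond counting error. The part of that share in the lower level of the class was not tested.

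Pdgfrb was lower in KO in pericyte-like cells and in the Sncg smooth muscle-like cluster, on few KO cells. Pericyte-like cells were at 2192 CPM in control (127 cells) and 1378 CPM (1029 to 1807; 52 UMIs in 9 cells) in KO, a log2 ratio of -0.67 (-1.10 to -0.27), and 1 KO cell held 20 of the 52 UMIs. All 8 pericyte markers were detected in both libraries and summed to 18764 and 18024 CPM, while 7 smooth muscle markers summed to 1283 and 3048 CPM; median depths were 6024 and 2731 UMIs, and their part in the result was not tested. The Sncg smooth muscle-like cluster went from 456 to 203 CPM (-1.17, -2.41 to -0.14; 9.80% of genes there were 2-fold lower) on 8 KO UMIs from 6 cells, and mural-like cells from 1054 to 873 CPM (-0.27, -0.60 to 0.04). The Ptn cluster was at 109 and 70.7 CPM (-0.62, -1.41 to 0.10).

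Taken as 1 group, pericyte-like, mural-like and smooth muscle-like cells were at 1019 CPM of Pdgfrb in control and 385 CPM in KO (-1.40, -1.63 to -1.18). Pdgfra in the same group went the other way, from 286 to 587 CPM (1.04, 0.83 to 1.24). Of 5 members 1 was 2-fold higher and 1 was 2-fold lower, against 2.12% and 6.33% of all genes. The Ptn cluster, high in Pdgfra and low in Pdgfrb, made up 80 of 298 control cells and 20 of 41 KO cells of this group. Without it the Pdgfrb ratio was -0.87 (-1.11 to -0.64) and 0 of 2 members were 2-fold lower, against 11.3% of all genes. The makeup still differed there, with pericyte-like cells 127 of 218 in control and 9 of 21 in KO. For Pdgfa the pooled ratio was -0.63 (-0.98 to -0.29), and it was -0.01 (-0.37 to 0.34) without the Ptn cluster, while mural-like cells alone were at -0.36 (-0.86 to 0.10). In smooth muscle-like cells as a class, where 2 of 4 members and 3.67% of genes were 2-fold lower, Pdgfa went from 212 to 87.7 CPM, but in its Sncg cluster it went from 827 to 583 CPM (-0.50, -1.19 to 0.12).

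Within the Ptn cluster itself Pdgfc was at 127 CPM in control and 59.6 CPM (34.1 to 96.7; 16 UMIs in 20 cells) in KO, a log2 ratio of -1.09 (-1.95 to -0.33), and 3.27% of all genes there were 2-fold lower. Pdgfra was at 795 and 994 CPM (0.32, 0.11 to 0.53), and 1 KO cell held 55 of its 267 UMIs. In Folr2 macrophage-like cells Pdgfc was at 92.5 and 80.4 CPM (-0.20, -1.10 to 0.58). Over all cells Pdgfc was lower in KO (log2 ratio -0.80, -1.14 to -0.48), beside Folr2 macrophage-like cells that made up 8.57% of control and 1.81% of KO cells.

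Pdgfb in nonclassical monocyte-like cells showed the lowest ratio of the 20 pairs. It was at 105 CPM in control (83 UMIs, in 41 of 119 cells) and 10.6 CPM (2.88 to 27.0; 4 UMIs in 30 cells) in KO, a log2 ratio of -3.32 (-5.23 to -1.91), where 5.54% of genes were 2-fold lower. Other genes of the class differed as well: the 7 nonclassical monocyte markers summed to 4851 CPM in control and 1895 CPM in KO, the 6 classical monocyte markers to 4464 and 6375 CPM, and 5 erythroid genes to 11016 and 652 CPM. Their part in the result was not tested.

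Other immune cells differed less or rested on few UMIs. Pdgfb was at 34.9 CPM (60 UMIs) and 8.93 CPM (3 UMIs) in the unnamed cluster led by Cd209a, Mgl2 and Flt3 (-1.96, -4.28 to -0.35), where 4.65% of genes were 2-fold lower. In NK-like cells the ratio was -0.34 (-1.05 to 0.32), in type 1 dendritic-like cells 0.03 (-0.86 to 0.87) and in the Mmp12 cluster -0.66 (-1.40 to 0.01). Pdgfa in the Mmp12 cluster, with 29 and 18 UMIs below the depth set for counting, was at 16.8 and 41.3 CPM (1.30, 0.37 to 2.20).

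The genes around the receptors were followed in a list of 35: proteins that activate or bind PDGF, receptor adaptors and enzymes, downstream kinases and transcription factors, and receptor phosphatases. In fibroblast-like cells 33 had enough UMIs (St14 had 0 and Crkl had 40), and 0 were 2-fold higher or lower. Their median log2 ratio was -0.13, near the -0.10 of all genes, and 11 of the 33 had a ratio above 0.

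Of the list, Plau, which encodes the urokinase that can activate PDGF-D, had the largest ratio, -0.99 (-1.13 to -0.86), with 3523 UMIs in control and 550 in KO. Pdgfrl, a gene for a secreted protein resembling the receptors' extracellular part, was at 0.89 (0.62 to 1.16). Among genes of signaling enzymes, Ptprj, a receptor-type phosphatase, was at -0.79 (-1.31 to -0.30) and Fyn, a Src family kinase, at -0.71 (-0.87 to -0.56). Plaur, the urokinase receptor, was at 0.62 (-0.16 to 1.37) on 48 and 23 UMIs. Plat, the gene of the tPA protease, was at -0.24 (-0.35 to -0.13). These ratios are for the fibroblast-like class as a whole and were not split by cluster, although its makeup differed between the libraries as given above.

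In pericyte-like, mural-like and smooth muscle-like cells together 29 of the 35 had enough UMIs, with 0 higher and 3 lower past 2-fold (Plat, Pik3ca and Nck2), against 2.12% and 6.33% of all genes. In blood endothelial-like cells 23 had, with 0 past 2-fold, against 4.97% of all genes. Named afterward from that count, Plat was at -1.03, Pik3ca, a catalytic subunit of PI3-kinase, at -1.08 and Nck2, an adaptor, at -1.18. This group carries the difference in Ptn cluster share given above.

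**Figure D5:**
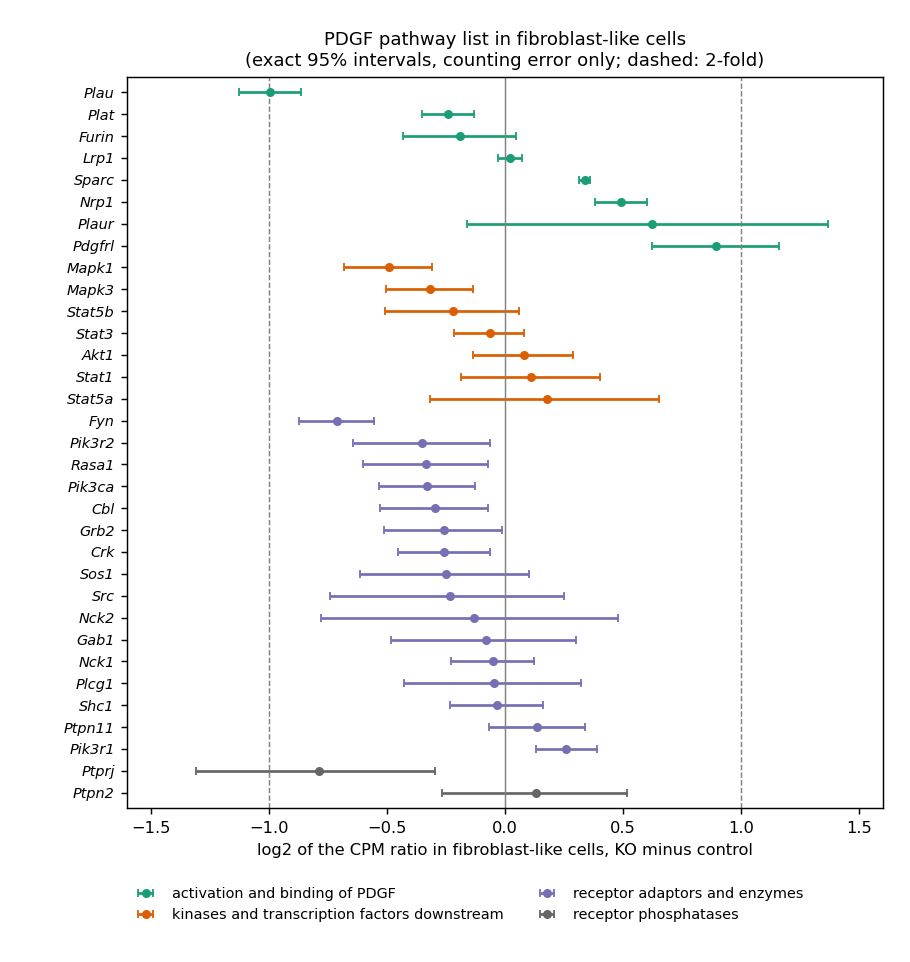
Log2 ratio of KO to control (x axis) for the 33 measured genes around the PDGF receptors (y axis, grouped by role) in fibroblast-like cells, with exact 95% intervals for counting error. The lowest point is Plau (-0.99) and the highest Pdgfrl (0.89), and none lies past 2-fold.

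Genes with the pattern most like each member were found by Pearson's r of log2(CPM + 10) over the 16 control classes, given as a description, since classes share a library. Pdgfrb was most like Aspn (0.984), Nfatc4 (0.983) and Adamts12 (0.979), and in the KO library these had r of 0.980, 0.914 and 0.971. Pdgfra was most like 6030408B16Rik (0.978), 9330159F19Rik (0.974) and Prokr1 (0.972). For the ligands the nearest were Mgst3 (0.973), Parm1 (0.972) and Ccdc3 (0.955) with Pdgfa, Slc16a7 (0.924), Ppp1r9a (0.922) and Reps2 (0.915) with Pdgfc, and Smad6 (0.946), Dusp8 (0.931) and A430105I19Rik (0.931) with Pdgfd. Pdgfb, whose RNA was spread over endothelial, muscle and immune cells, had lower values: Bbc3 (0.781), Higd2a (0.75) and Gvin1 (0.745) came nearest in control and stood at 0.326, 0.490 and 0.460 in KO.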

How the data were processed

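The authors sequenced 3′-end single-cell libraries of gWAT SVF and deposited 1 matrix of raw UMI counts per genotype, made with Cell Ranger 3.0.1 (Seurat 3.1.5 and R 4.0.1 are also in the submitters' processing notes) on mm10. From these deposited counts, Scrublet scores (scanpy 1.11.5, Python 3.11.15) removed the top-scoring barcodes among those passing the filters, at a rate of 0.8% per 1000 barcodes of the whole deposited library (265 control, 21 KO). Cells were clustered in 2 steps (2000 variable genes without the PDGF family, 30 components, 20 neighbors, Leiden resolutions 0.5 and 1.0). A cluster was named where its best marker list led the next by 0.75, at least 3 markers were detected in 25% of cells and no other class led its top genes; these limits were set after seeing the data. Members and lists were chosen with earlier results of these data known. Counts below 3 were set to 3 where genes past 2-fold were counted. Ratios given for single genes used the counts as they were, except that for a member without a UMI 3 was used. Besides the members and Pgam1, genes were named by rule: the 5 pathway genes with the largest ratio, and the 3 with the highest r for each member among genes with at least 100 control UMIs. Plat in fibroblast-like cells and the marker genes given for the Ptn cluster were chosen after their values were seen. So were the 3 pathway genes named in pericyte-like, mural-like and smooth muscle-like cells together. Alternatives were other cell filters, no doublet removal, other clustering, thinning, scaling by edgeR 4.0.16 or DESeq2 1.42.0 factors, and other count minimums. Counting scripts were tested on simulated data. Start-site windows were taken for 4 of the 6 members. None was at hand for Pdgfb, and Pdgfrb was left out by rule.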

Additional observations from a re-analysis of the deposited data

Results flagged for a closer look

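Pdgfrb ratios had opposite signs between fibroblast-like cells and pericyte-like or smooth muscle-like cells taken as classes. The log2 ratio (KO over control) was -0.67 in pericyte-like cells, -1.11 in smooth muscle-like cells and 0.19 in fibroblast-like cells, with 52, 27 and 821 KO UMIs behind them. Within the fibroblast-like class the Agt cluster was at 0.29 and progenitor-like cells at 0.40, but the Ccl11 and Cilp clusters were at -0.14 and -0.19. The difference between these ratios was not tested, since each genotype has 1 library. The smooth muscle-like value mixes the Sncg and Ptn clusters, which had 35 and 80 control cells and 6 and 20 KO cells.

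A Pdgfa signal also stood in barcodes outside the comparison. The 13 control barcodes that clustered as Schwann-like before doublet removal, all of them then removed by their doublet score, were at 868 CPM of Pdgfa, against 1513 CPM in the 7 KO Schwann-like cells, none of which was removed. In smooth muscle-like cells 20 of 136 control barcodes (14.7%) and 1 of 27 KO barcodes (3.70%) were removed in the same way. The rate of removal was set by library size, and over all classes 265 of 3881 control and 21 of 958 KO barcodes were removed.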

How the results depend on the processing

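Over the main results, 70 recomputed values stayed within counting error or within 1.5 times a count and 22 moved past it, all on cells of 1 library per genotype. A turn of sign was counted only from a main ratio of at least 2-fold with an interval excluding 0. Only Pdgfrb in pericyte-like, mural-like and smooth muscle-like cells together met that, and 0 of its values turned, so this says nothing of the other results. Control co-detection in fibroblast-like cells was 57.6% with a filter of 200 genes and 20% mitochondrial UMIs, 72.9% with a first resolution of 1.0 or another seed (901 cells), 27.0% after thinning and 87.1% in interstitial cells alone. Pathway genes past 2-fold numbered 1 under the looser filter, without doublet removal, at resolution 1.0 and with another seed (Plau), 2 with 1000 genes and 5% (Plau and Pdgfrl) and 3 after thinning (Plau, Pdgfrl and Gab1). Pdgfrb in pericyte-like, mural-like and smooth muscle-like cells together was -1.79 under the stricter filter (73 and 8 cells) and -1.66 as a mean over cells. It was -0.87 without the Ptn cluster and -0.67 in pericyte-like cells alone. Pdgfra in fibroblast-like cells was 0.18 thinned, 0.13 under TMM, 0.12 under median-of-ratios and -0.062 as a mean over cells; its sign, with a main interval that includes 0, also turned under the stricter filter (-0.014). Genes past 2-fold numbered 629 with at least 20 UMIs (226 higher and 403 lower), 1221 with no minimum (818 and 403) and 286 thinned (57 and 229), against 119 and 177. Pdgfa in fibroblast-like cells was 2.47 with Schwann-like cells included. The class with the highest level was the main one for 4 genes under the stricter filter and for 5 without doublet removal or as a mean over cells. The values without the Ptn cluster, in pericyte-like or interstitial cells alone and with Schwann-like cells were chosen after seeing the data. Apart from these changes of cells or minimum, the cause was not tested. No paired analysis was possible because each genotype has 1 library, and for the same reason no replicate could be left out.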

Other observations

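The barcodes left out by the gene and mitochondrial filters (4641 in control and 1772 in KO) had lower levels of all 6 PDGF genes in the KO library. Summed over these barcodes, Pdgfrb was at 76.8 CPM in control and 32.1 CPM in KO (log2 ratio -1.26, -1.54 to -0.99) and Pdgfa at 61.2 and 32.6 CPM (-0.91, -1.19 to -0.64). Pdgfra was at 75.0 and 47.2 CPM (-0.67, -0.90 to -0.44), unlike in kept cells, where its ratio was 0.04 (-0.03 to 0.10). Pdgfc was at 13.9 and 4.62 CPM, Pdgfd at 5.65 and 2.68 CPM and Pdgfb at 31.3 and 22.4 CPM. These barcodes were not clustered, so the cells behind them are not known. Their totals include mitochondrial UMIs, and the ratios of all other genes in them were not counted. The lower levels are therefore not read as particular to PDGF genes.

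The lymphatic endothelial-like class held 11 Pdgfa UMIs in 56 control cells and 8 in 11 KO cells, at 31.7 CPM (15.8 to 56.7) and 88.8 CPM (38.3 to 175).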
